A study of Mus musculus with 12 samples.

Results

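Divergent promoter pairs are pairs of protein-coding genes on opposite strands that start close together and are transcribed away from each other. They were chosen by position alone: 1 start was taken per protein-coding symbol of GENCODE M21 on mm10 (that of the longest gene), and a minus-strand start had to lie left of a plus-strand start by at most 1 kb. The rule found 750 pairs, built from 1482 of the 21911 protein-coding symbols. The distance between the starts had a median of 130 bp, quartiles of 67 and 240 bp, and a range of 1 to 987 bp. Of the symbols, 18 belonged to more than 1 pair, so 36 pairs shared a symbol with another pair. For each pair the region ran from 1 kb beyond the minus-strand start to 1 kb beyond the plus-strand start. The 1 kb beyond each start, together with the base of the start itself, is called that gene's side, so a fully covered side has 1001 bp.

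Acetylation of histone H3 at lysine 9 (H3K9ac) is carried by nucleosomes at active promoters, most of all by the first nucleosomes inside a transcribed gene. An active promoter keeps a short stretch free of nucleosomes where the transcription machinery assembles, and this stretch carries no histone mark. In a divergent pair both genes use the same short stretch of DNA, often a CpG island, and many such pairs encode housekeeping proteins of mitochondria, translation and DNA repair.

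H3K9ac was mapped by chromatin immunoprecipitation and sequencing in adult liver of the strains C57BL/6J (B6, 2 libraries) and MSM/Ms (MSM, 2 libraries). The F1 hybrids of the reciprocal crosses, F1 BM and F1 MB, were mapped as well, with 1 library each. Their letters were read as mother before father, a B6 mother for F1 BM and an MSM mother for F1 MB. The sample titles do not state this order. The MSM/Ms strain was bred from wild mice caught in Japan. No group carried a transgene or a treatment, and reads of all groups were placed on the B6 genome. Whole liver was used, the 2 libraries of each parental strain came from 2 individuals, and the labels name no sex. Each library was given as a list of peaks, with no read counts, so the reads behind a peak were not analysed here and a missing peak cannot be told from one too weak for that library. The lists held 11619 to 22968 peaks and covered 6.28 to 16.0 Mb. The list of B6 replicate 1 was the longest and that of B6 replicate 2 the shortest, so that all other lists lay between those of B6. A peak lay within 1 kb of the start of 9 of 10 hepatocyte markers in every library. For Kupffer cell, stellate cell, and neuron and muscle markers there was a peak at none of the 6 starts of each list in any library, and for endothelial markers at 0 to 5 of 6.

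The stretch between the starts is where the sequence of both promoters lies, and it is shown first for pairs with peaks on both sides in all 6 libraries or, for Arcn1/Ift46, in some. Arcn1 encodes a subunit of the COPI vesicle coat and Ift46 a protein of intraflagellar transport. Sdhd encodes a membrane anchor of succinate dehydrogenase and Timm8b a small chaperone of the mitochondrial intermembrane space. Hadha and Hadhb encode the alpha and beta subunits of the trifunctional protein of fatty acid oxidation. Idh3g encodes a subunit of NAD-dependent isocitrate dehydrogenase and Ssr4 a subunit of the translocon-associated complex. Each sequence is the plus strand of GRCm38.p6 (RefSeq) from the minus-strand start to the plus-strand start, 5′ to 3′, with capitals for the letters of 10 searched motifs on either strand.
Arcn1/Ift46 (chr9:44767845-44767908): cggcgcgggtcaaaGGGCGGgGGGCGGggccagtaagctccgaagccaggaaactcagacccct
Sdhd/Timm8b (chr9:50603812-50603910): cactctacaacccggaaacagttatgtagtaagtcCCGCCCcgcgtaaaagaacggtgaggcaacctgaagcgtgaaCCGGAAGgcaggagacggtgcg
Hadha/Hadhb (chr5:30155162-30155248): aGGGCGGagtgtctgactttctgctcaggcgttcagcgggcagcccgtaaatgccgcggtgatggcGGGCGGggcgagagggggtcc
Idh3g/Ssr4 (chrX:73786897-73787028): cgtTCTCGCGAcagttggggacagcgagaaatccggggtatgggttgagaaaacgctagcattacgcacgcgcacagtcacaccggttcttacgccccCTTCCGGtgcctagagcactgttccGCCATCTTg
Shld2/Glud1 (chr14:34310493-34310727): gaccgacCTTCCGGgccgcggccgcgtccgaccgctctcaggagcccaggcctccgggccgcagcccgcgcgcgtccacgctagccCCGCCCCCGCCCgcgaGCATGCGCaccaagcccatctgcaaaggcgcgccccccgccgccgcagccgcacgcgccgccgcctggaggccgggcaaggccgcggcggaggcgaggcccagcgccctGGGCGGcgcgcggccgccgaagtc
The last of them lies between Shld2, which encodes a protein of DNA break repair, and Glud1, which encodes glutamate dehydrogenase. It had a GC content of 82.1% and 42 CpG dinucleotides in 235 bases, against 56.6% and 9 in the 99 bases of Sdhd/Timm8b. The capitals in Idh3g/Ssr4 mark, from left to right, the BANP letters TCTCGCGA, the ETS letters CCGGAAG on the minus strand and the YY1 letters AAGATGGC on the minus strand. In Arcn1/Ift46 and Hadha/Hadhb they mark the GC box GGGCGG. In Shld2/Glud1 they mark an ETS match, GC boxes and the NRF1 letters GCATGCGC.

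The next stretches belong to pairs with peaks on 1 side in most or all libraries, or with none. Nbr1 encodes an autophagy receptor and Brca1 a protein of DNA repair. Cdc27 encodes a subunit of the anaphase-promoting complex and Myl4 a myosin light chain of the atrium. Chdh encodes choline dehydrogenase, the first enzyme of choline oxidation, and Il17rb a cytokine receptor. Hist1h2bf and Hist1h2ad are replication-dependent histone genes.
Brca1/Nbr1 (chr11:101551955-101552149): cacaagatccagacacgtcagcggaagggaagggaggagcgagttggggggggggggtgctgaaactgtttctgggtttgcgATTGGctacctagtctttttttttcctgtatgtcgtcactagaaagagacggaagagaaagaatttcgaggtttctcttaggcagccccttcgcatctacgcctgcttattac
Cdc27/Myl4 (chr11:104550620-104550663): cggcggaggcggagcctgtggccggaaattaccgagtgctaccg
Il17rb/Chdh (chr14:30008896-30009023): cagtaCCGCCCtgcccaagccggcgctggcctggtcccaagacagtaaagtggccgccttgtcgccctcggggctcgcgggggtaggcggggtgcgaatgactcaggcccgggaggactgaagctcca
Hist1h2bf/Hist1h2ad (chr13:23574196-23574381): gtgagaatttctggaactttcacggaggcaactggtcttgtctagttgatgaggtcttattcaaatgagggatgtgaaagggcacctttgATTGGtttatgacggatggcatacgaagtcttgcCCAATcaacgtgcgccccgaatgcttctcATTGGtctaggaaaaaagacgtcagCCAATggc
The capitals in Hist1h2bf/Hist1h2ad mark 4 CCAAT boxes, on alternate strands, and those in Brca1/Nbr1 mark 1. None of the searched letters lay in the 44 bases of Cdc27/Myl4.

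The last 3 stretches belong to pairs whose cover differed between the strains. Cyp39a1 encodes an oxysterol 7-alpha-hydroxylase of bile acid synthesis, and Slc25a27 a mitochondrial carrier. Srp54a encodes the GTPase of the signal recognition particle. Nsdhl encodes a dehydrogenase of cholesterol synthesis and Cetn2 a centrin.
Slc25a27/Cyp39a1 (chr17:43667214-43667425): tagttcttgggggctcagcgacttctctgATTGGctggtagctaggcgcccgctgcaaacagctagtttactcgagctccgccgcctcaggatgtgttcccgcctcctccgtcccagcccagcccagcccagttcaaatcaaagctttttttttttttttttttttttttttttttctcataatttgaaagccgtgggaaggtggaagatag
2700097O09Rik/Srp54a (chr12:55080110-55080262): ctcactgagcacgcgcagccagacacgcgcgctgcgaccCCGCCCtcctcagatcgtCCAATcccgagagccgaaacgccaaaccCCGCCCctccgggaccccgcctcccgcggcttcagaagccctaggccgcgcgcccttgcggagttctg
Cetn2/Nsdhl (chrX:72918411-72918557): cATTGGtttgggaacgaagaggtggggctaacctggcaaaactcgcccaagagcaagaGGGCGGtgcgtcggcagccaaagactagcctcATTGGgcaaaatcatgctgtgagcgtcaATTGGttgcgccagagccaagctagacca
The sequences are those of the B6 reference; MSM sequence was not analysed here.

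The first question was how peaks lie around a divergent pair. In every library the cover had a maximum on either side of the pair and, between the maxima, fell towards the middle. At the midpoint of the pair 27.7% of the regions lay in a peak in B6 replicate 1, 8.93% in B6 replicate 2, 13.7% in MSM replicate 1, 12.7% in MSM replicate 2, and 10.5% and 10.3% in F1 BM and F1 MB. The maximum on the minus-strand side lay 275 to 375 bp from the midpoint and reached 30.1 to 63.6% of the regions. The maximum on the plus-strand side lay 250 to 400 bp from the midpoint and reached 27.5 to 66.8%. In the same library the midpoint value was 0.236 to 0.436 times the maximum on either side.

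**Figure D1:**
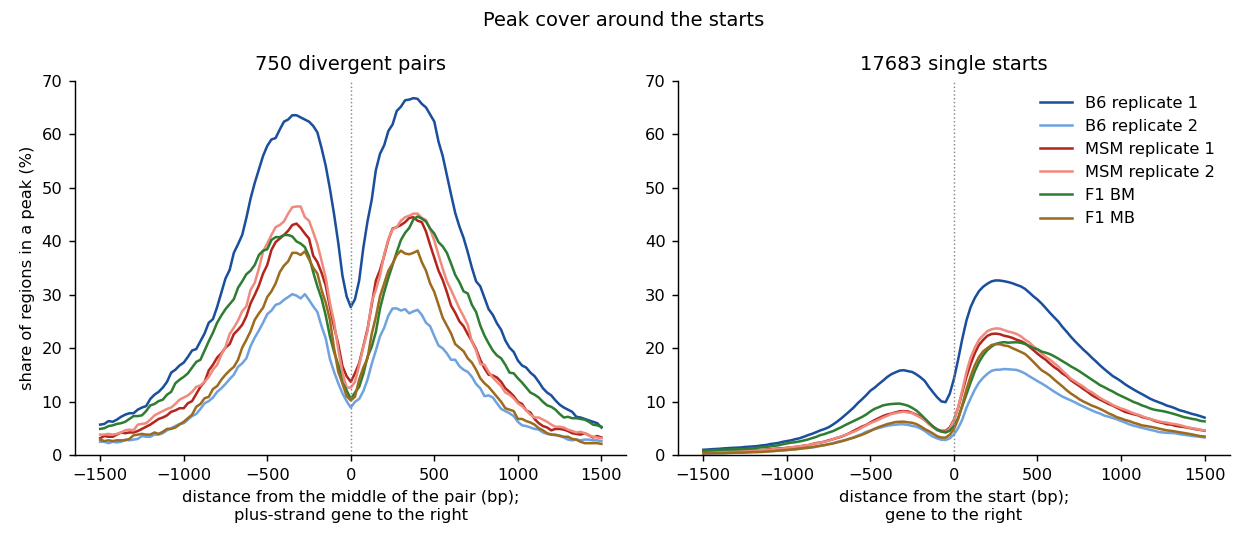
Share of regions lying in an H3K9ac peak (y axis, %) at each distance (x axis, bp) from the middle of 750 divergent pairs (left) and from 17683 single starts (right), 1 line per library. The pairs show a maximum on either side and a dip between the maxima in all 6 libraries. The single starts show a dip as well, with a higher maximum on the gene's side than on the upstream side.

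For comparison, 17683 starts with no other protein-coding start within 5 kb were taken as single starts, and their region had the same shape, with 130 bp in place of the distance between the starts. At single starts the cover was uneven. The maximum inside the gene lay at 250 to 300 bp and reached 16.1 to 32.7% of the starts, and the maximum upstream lay at 300 to 325 bp and reached 5.81 to 15.9%. Within a library the lowest point between these maxima lay 50 to 75 bp upstream of the single start. The value at the start itself was 0.234 to 0.437 times the maximum inside the gene, much as at the midpoint of the pairs. Against the upstream maximum it was 0.563 to 0.899 times.

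In each library a pair was placed by where its peaks lay: on both sides, on 1 side, only between the starts, or nowhere in the region. Of the 750 pairs, peaks lay on both sides of 60.3% in B6 replicate 1, 22.4% in B6 replicate 2, 36.8% in MSM replicate 1, 37.9% in MSM replicate 2, and 36.3% and 26.7% in F1 BM and F1 MB. The 95% Wilson interval was 56.7 to 63.7% for the highest and 19.6 to 25.5% for the lowest of these shares, and it covers counting error over pairs only. The B6 libraries were the highest and the lowest, and the MSM and F1 libraries lay between them. This order changed with the lists: with the same covered length taken from each, B6 replicate 2 was highest at 22.4%, B6 replicate 1 had 11.7% and F1 BM was lowest at 9.87%, and in lists shortened to equal peak number F1 BM was lowest at 20.4%. Peaks lay on 1 side only in 26.0 to 40.5% of the pairs, between the starts only in 1 to 4 pairs, and nowhere in 13.5 to 42.3%. Peaks on both sides averaged 41.3% ± 26.8 for B6 and 37.3% ± 0.754 for MSM (SD, n = 2), a difference of -4.00 percentage points that was within the spread of the B6 libraries (two-sided exact permutation test over 4 libraries, p = 1). With 2 libraries against 2 this test cannot go below 0.3333. Without B6 replicate 1 the difference was 14.9 points in the other direction.

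**Figure D2:**
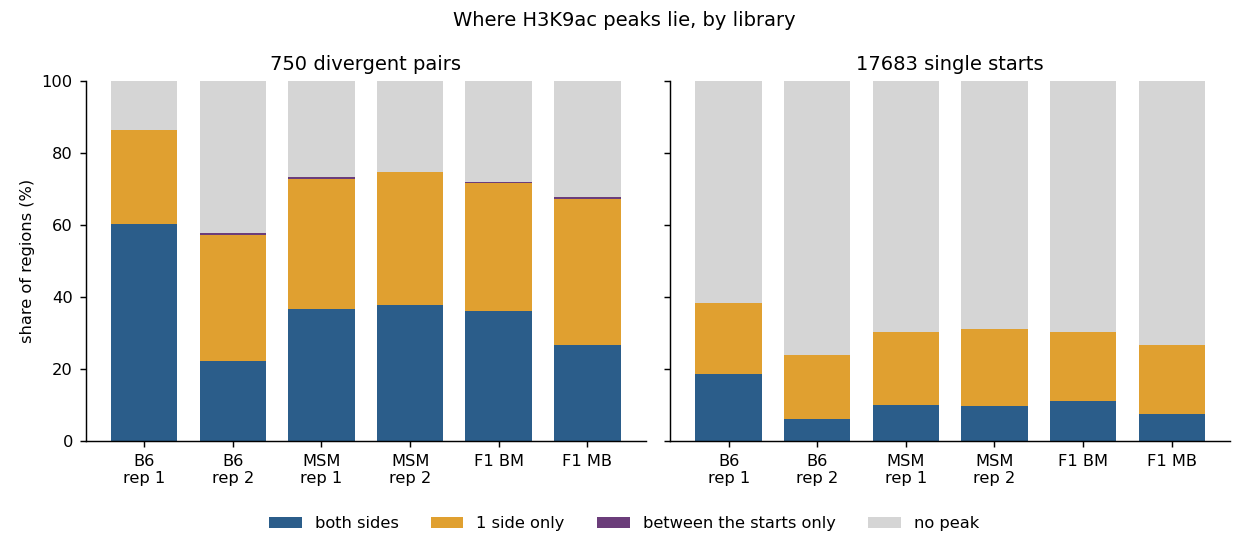
Share of regions (y axis, %) with peaks on both sides, on 1 side only, only between the starts, or with no peak, for 750 divergent pairs (left) and 17683 single starts (right) in the 6 libraries (x axis). In every library the pairs had more regions with a peak and more with peaks on both sides than the single starts.

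Over the 6 libraries, 659 pairs had a peak in at least 1 and 377 in all 6, while 91 had none in any. Peaks lay on both sides in all 6 libraries at 99 pairs and in at least 1 library at 468. Of these, 87 had peaks on both sides in B6 replicate 1 alone, the longest list. Peaks lay on 1 and the same side in all 6 libraries at 60 pairs, 33 on the minus-strand side and 27 on the plus-strand side. At 39 pairs the single covered side was the minus-strand side in some libraries and the plus-strand side in others.

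Paired starts held a peak within 1 kb more often than single starts in 6 of 6 libraries. The share of paired starts was 86.3% in B6 replicate 1, 57.3% in B6 replicate 2, 72.9% in MSM replicate 1, 74.5% in MSM replicate 2, and 71.3% and 67.1% in F1 BM and F1 MB. The share of single starts was 23.8 to 38.5%. No library of the pairs fell as low as the highest single-start share. The means were 71.6% ± 9.50 and 30.1% ± 4.92 (SD, n = 6), a difference of 41.5 ± 4.73 points (two-sided exact sign-flip test over 6 libraries, p = 0.03125, the smallest it can give, and 0.03125 after Benjamini-Hochberg adjustment over 3 such comparisons). The test speaks of how regularly the difference returned over these libraries, with the same pairs in each. Single starts were not matched to paired starts in sequence. A ratio of observed to expected CpG of at least 0.6 was found at 45.0% of single and 87.7% of paired starts. A part of this in the difference was not tested. Because a peak on the partner's side also lies within 1 kb, the share with a peak in the start's own 1 kb downstream was computed too, an alternative chosen after seeing the data. It was 54.0% ± 11.2 for paired and 28.4% ± 5.15 for single starts (SD, n = 6), a difference of 25.6 ± 6.08 points in the same direction in 6 of 6 libraries (exact sign-flip p = 0.03125). The highest peak of a region had a median fold enrichment over background of 3.74 to 6.98 in pairs and 3.87 to 7.17 in single regions, and the pairs were lower in 5 of 6 libraries.

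Among regions with a peak, both sides were covered in 38.8 to 69.6% of pairs and in 26.3 to 48.2% of single regions, and the pairs were higher in each library. A region was called lopsided when its sides differed by at least 500 bp of cover. Lopsided were 24.7 to 27.9% of the pairs with a peak and 37.6 to 45.5% of the single regions with a peak, and the pairs were lower in 6 of 6 libraries. The ranges overlapped with equal covered length, at 27.9 to 61.0% and 37.6 to 69.9%, with means of 44.7 and 54.4%. They also overlapped with equal peak number, at 27.9 to 40.2% and 37.6 to 59.2%, with means of 34.8 and 47.9%. With sides of 500 bp, and the limit scaled to them, they overlapped at 33.0 to 54.4% and 53.4 to 63.2%. The means were then 45.5 and 57.9%. In each of these settings the pairs were again lower in 6 of 6 libraries. At single starts the gene's side held 485 to 654 bp of cover on average and the upstream side 124 to 226 bp. These shares are given as a description, with no test.

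Within the 1 kb downstream of a start, cover was shorter in pairs than at single starts. Among starts with a peak within 1 kb it was 388 ± 69.6 bp for paired and 552 ± 56.0 bp for single starts (SD, n = 6), a difference of -163 ± 20.7 bp that was negative in 6 of 6 libraries (exact sign-flip p = 0.03125, adjusted 0.03125). A paired start whose only peak lies on the partner's side counts with 0 bp in this mean. With a side of 500 bp in place of 1 kb the difference was -56.9 bp. Over starts with some cover in their own 1 kb downstream, chosen after seeing the data, the means were 516 ± 52.6 and 584 ± 49.7 bp and the difference -68.9 ± 11.4 bp, less than the first value by more than 1.5 times, again in 6 of 6 libraries (exact sign-flip p = 0.03125).

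The second question was whether the stretch between the starts breaks the cover. Of the pairs with peaks on both sides, a gap between peaks was present in 78.3% in B6 replicate 1, 86.9% in B6 replicate 2, 89.5% in MSM replicate 1, 92.6% in MSM replicate 2, and 92.3% and 90.0% in F1 BM and F1 MB. The remaining pairs were covered by 1 continuous peak. No list held peaks closer than 49 bp, so narrower gaps could not appear. It averaged 82.6% ± 6.07 for B6 and 91.0% ± 2.20 for MSM (SD, n = 2), a difference of 8.44 points (exact permutation p = 0.3333, the smallest possible with 2 against 2, and 1 after Benjamini-Hochberg adjustment over 5 strain comparisons). The MSM libraries lay above both B6 libraries, and B6 replicate 1, with the longest list, was lowest. Leaving out B6 replicate 1 gave a difference of 4.14 points, and leaving out B6 replicate 2 one of 12.7 points. With equal peak number or equal covered length the strains overlapped: B6 replicate 2 had 86.9% in both, above the MSM replicates with 79.5 and 82.6% in the first and 69.0 and 75% in the second (exact permutation p = 1 in both).

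Single regions with peaks on both sides had a gap in 82.8% ± 4.53 against 88.3% ± 5.30 of the pairs (SD, n = 6). The difference was 5.49 ± 1.51 points and positive in 6 of 6 libraries (exact sign-flip p = 0.03125, adjusted 0.03125). It depended on the rule: with 456 more pairs whose 5′ ends overlap by up to 1 kb, it was -15.0 points, with the same exact sign-flip p of 0.03125 for the opposite direction.

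The median width of a pair's widest gap was 218.5 and 283 bp in the B6 replicates 1 and 2, 279 and 260 bp in the MSM replicates 1 and 2, 343 bp in F1 BM and 265.5 bp in F1 MB. B6 replicate 1 was the narrowest and F1 BM the widest. These medians averaged 251 ± 45.6 bp for B6 and 269.5 ± 13.4 bp for MSM (SD, n = 2), a difference of 18.8 bp within the spread (exact permutation p = 1). Its direction turned without B6 replicate 1 (-13.5 bp) and with equal peak number or covered length (-10.8 and -13.2 bp), and it was 51 bp without B6 replicate 2. The widest gap overlapped the stretch between the starts in 85.6 to 90.8% of the pairs with a gap, 86.8% ± 1.27 in B6 and 88.0% ± 1.36 in MSM (exact permutation p = 0.667, SD, n = 2). Values of single regions are given with no test. Their widest gap had a median width of 214 to 328 bp, close to that of the pairs. It overlapped the 130 bp stretch that stood in for the distance in 78.6 to 83.0%, lower than in the pairs in each library.

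For gaps over the stretch between the starts, the place of the gap is given as a description, since gaps chosen for this overlap lie about the midpoint in large part by that choice. The centre of the gap lay a median of -3.5 to 18 bp from the midpoint of the starts, positive towards the plus-strand gene, and the gap held the midpoint in 85.5 to 89.9% of these pairs. The gap reached past the starts into both genes in 52.3% of these pairs in B6 replicate 1 and in 64.1 to 75% in the other libraries. Its edge lay downstream of the minus-strand start in 73.4 to 87.3% and downstream of the plus-strand start in 74.7 to 86.0% of these pairs. The median position of that edge was 32 to 97 bp inside the minus-strand gene and 43.5 to 115.5 bp inside the plus-strand gene, least in B6 replicate 1 and most in F1 BM. The gap was wider than the distance between the starts in 75.3 to 89.1%.

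Gap width followed the distance between the starts loosely. Across pairs whose widest gap lay over the stretch between the starts, Spearman's rho of width on distance was 0.292 to 0.374 in the 6 libraries. This was over 128 to 304 gaps, and the pairs share a library and are not independent. The medians by distance below take all pairs with a gap. From pairs with starts at most 50 bp apart to pairs with starts 201 to 400 bp apart, the median width rose from 163 to 258 bp in B6 replicate 1. It rose from 217 to 351.5 bp in B6 replicate 2, from 234.5 to 358 bp in MSM replicate 1, and from 204 to 318 bp in MSM replicate 2. The F1 values were 285 and 325 bp (F1 BM), and 214 and 332 bp (F1 MB). Even at distances of at most 50 bp a gap was present in 55.8 to 86.4% of pairs with peaks on both sides. At 401 to 1000 bp the median was 258 to 609 bp, but this class held 14 gaps in B6 replicate 2 and 16 in F1 MB.

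**Figure D3:**
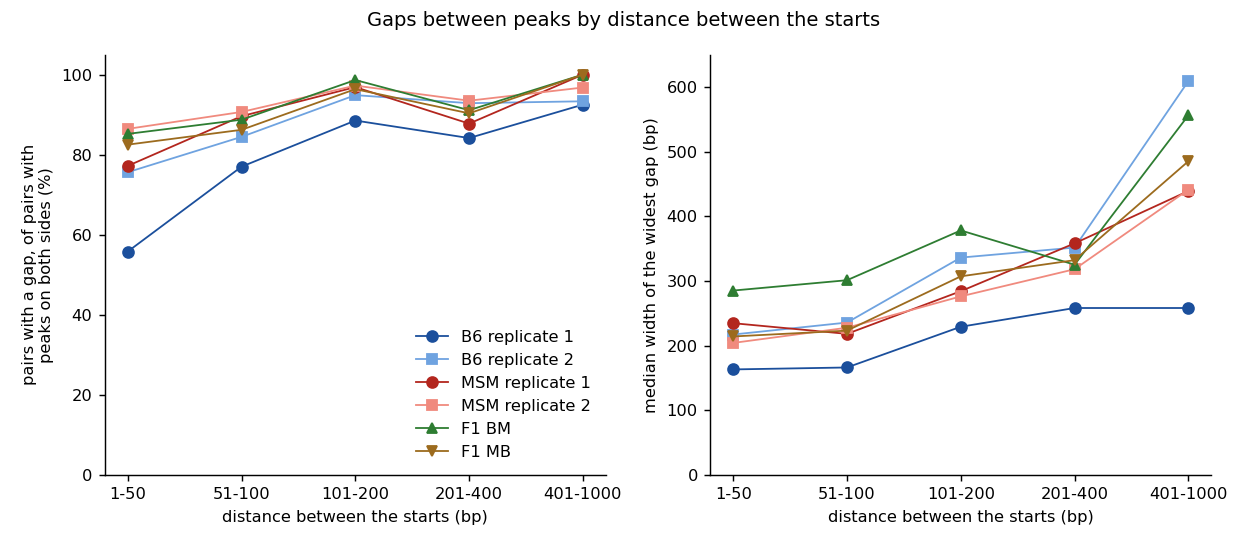
Share of pairs with a gap among pairs with peaks on both sides (left, %) and median width of the widest gap (right, bp) in 5 classes of distance between the starts (x axis, bp), 1 line per library. In each library both values were lower in pairs with starts at most 50 bp apart than in pairs with starts 201 to 400 bp apart.

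Closely spaced starts also held peaks more often. A peak lay in the region of 71.4 to 96.8% of the 126 pairs with starts at most 50 bp apart and of 54.9 to 71.4% of the 91 pairs with starts 401 to 1000 bp apart. Peaks on both sides were found in 31.7 to 75.4% of the first and 16.5 to 44.0% of the second. The first class was higher in each library on both counts.

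Of the 99 pairs with peaks on both sides in all 6 libraries, 67 had a gap in all 6 and 16 in 5; in 12 of these 16 the library without a gap was B6 replicate 1. A single pair had no gap in any library. At 41 of the 67 the widest gap overlapped the stretch between the starts in every library. The 4 pairs with the widest gaps by their mean follow. At Setd3/Ccnk, which encode a histidine methyltransferase of actin and cyclin K, it measured 534, 648, 680, 634, 634 and 635 bp (in the order B6 replicates 1 and 2, MSM replicates 1 and 2, F1 BM, F1 MB), with starts 265 bp apart and a mean of 627.5 ± 49.1 bp (SD, n = 6). At L3hypdh/Jkamp it measured 361, 856, 530, 480, 1119 and 803 bp, with starts 150 bp apart. At Txndc9/Eif5b, whose second gene encodes a translation initiation factor, it measured 156, 1360, 927, 897, 382 and 339 bp. At Ankrd17/Gm9958 it measured 263, 669, 955, 513, 728 and 535 bp. The widest gap is not the same gap in every library: it overlapped the stretch between the starts in all 6 libraries at Setd3/Ccnk and L3hypdh/Jkamp, but lay outside it in B6 replicate 1 at Txndc9/Eif5b and in B6 replicate 1 and F1 MB at Ankrd17/Gm9958.

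The third question was side balance, that is, whether both genes of a pair carried the mark to the same extent. Over all pairs neither strand was favoured: the plus-strand side was longer in 198 to 318 pairs and the minus-strand side in 231 to 326. The median difference between the sides of a pair with a peak was 287 to 360 bp. In 40.5 to 50.0% of the pairs with peaks on both sides, the sides differed by less than 200 bp. The same side was longer in all 6 libraries at 237 pairs, the plus-strand side at 114 and the minus-strand side at 123, and by 500 bp or more at 26. Lopsided pairs made up 26.9% ± 1.46 in B6 and 25.7% ± 1.42 in MSM (SD, n = 2, exact permutation p = 0.667). MSM lay above B6 with stricter lists (0.891 points), equal peak number (2.47), equal covered length (1.31) and a side of 500 bp (0.0128).

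Idh3g/Ssr4, Hnrnpa2b1/Cbx3, Bckdha/Exosc5 and Shld2/Glud1 were the 4 pairs with the highest fold enrichment, ranked by their lowest library. At Hnrnpa2b1/Cbx3 the fold was 9.35 to 18.6, 13.4 ± 3.71 on average (SD, n = 6). Hnrnpa2b1 encodes an RNA-binding protein and Cbx3 the heterochromatin protein HP1 gamma. Cover reached 930 to 987 bp on the Hnrnpa2b1 side and 645 to 1001 bp on the Cbx3 side. At Idh3g/Ssr4 the fold was 9.47 to 16.7, with 819 to 1001 bp on the Idh3g side and 275 to 778 bp on the Ssr4 side. At Shld2/Glud1 the fold was 8.61 to 15.5, and the gap measured 445, 577, 479, 492, 525 and 476 bp in the same order of libraries, with a mean of 499 ± 46.2 bp (SD, n = 6). At Bckdha/Exosc5, the first of which encodes a subunit of the branched-chain ketoacid dehydrogenase, the fold was 9.08 to 15.2. There the Bckdha side was covered over 993 to 1001 bp in every library, and the Exosc5 side over 424, 0, 261, 292, 238 and 328 bp.

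The pairs with the largest constant imbalance were covered on 1 side almost alone. At Il17rb/Chdh the Chdh side held 1001, 1001, 930, 1001, 939 and 918 bp and the Il17rb side 6, 0, 0, 0, 0 and 0 bp, in 1 peak in each library. At Arl3/Sfxn2 the side of Sfxn2, a mitochondrial transporter gene, held 743 to 888 bp and the Arl3 side none. At Cdc27/Myl4, with starts 43 bp apart, the Cdc27 side held 739 to 951 bp and the Myl4 side none. At Ranbp10/Tsnaxip1 the Ranbp10 side held 780 to 878 bp and the Tsnaxip1 side 0 to 17 bp. The cover of these 4 pairs did not separate the strains.

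**Figure D4:**
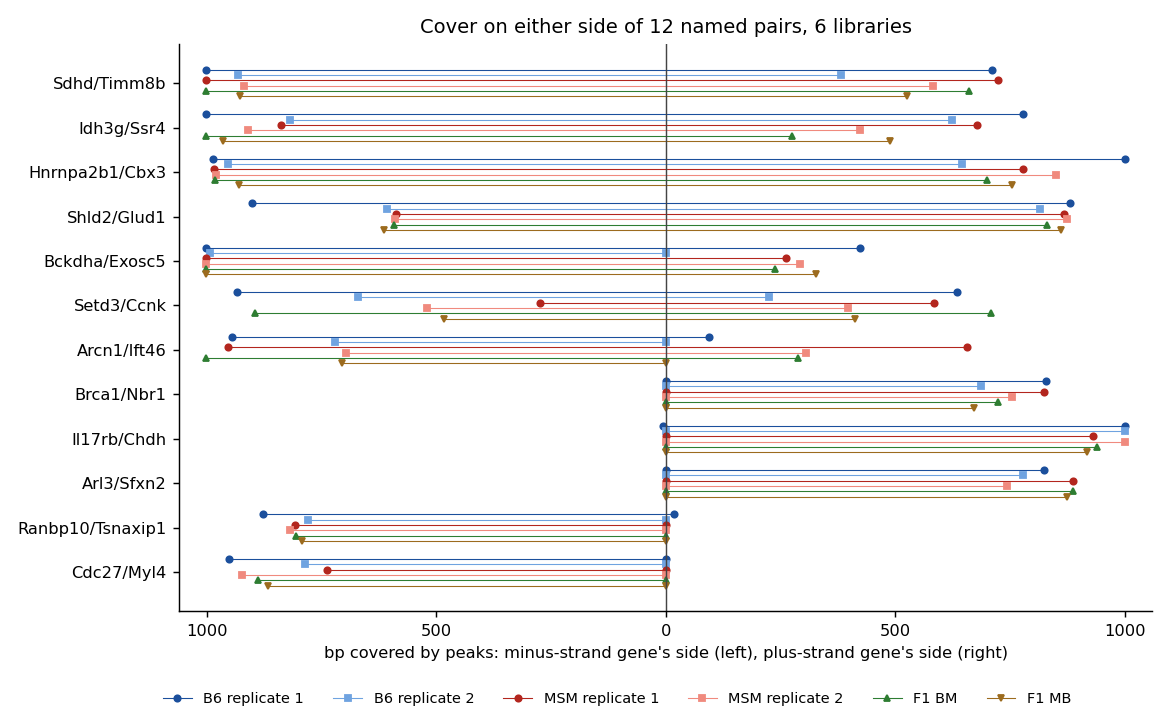
Base pairs covered by peaks on the minus-strand gene's side (left of 0) and on the plus-strand gene's side (right of 0) of 12 named pairs (y axis), 1 line per library; line ends give amounts of cover, not positions. The upper 6 pairs carried cover on both sides in all libraries save the Exosc5 side in B6 replicate 2, while Il17rb/Chdh, Arl3/Sfxn2, Brca1/Nbr1, Ranbp10/Tsnaxip1 and Cdc27/Myl4 carried it almost wholly on 1 side.

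Gene lists chosen by function are given by their counts, with no test, beside those of all pairs. Over all 750 pairs, 99 had peaks on both sides, 60 had them on 1 and the same side and 91 had no peak in all 6 libraries, 1 side was the longer in all 6 at 237, and the median pair had peaks on both sides in 1 library. The 19 pairs with a gene of the respiratory chain list, mostly subunits of its complexes and of ATP synthase, had a median of 5 libraries. Peaks lay on both sides in all 6 at 6 of them, among which were Atp5c1/Kin, Fam126b/Ndufb3, Rps28/Ndufa7, Sdhd/Timm8b and Uqcrq/Gdf9. None of the 19 was without a peak in all 6. The respiratory gene's side was the longer in all 6 libraries at 11 of the 19 and the partner's at 1. At Sdhd/Timm8b the Sdhd side held 1001, 931, 1001, 919, 1001 and 928 bp and the Timm8b side 710, 381, 723, 583, 661 and 525 bp, with a gap of 60 to 193 bp. At Rps28/Ndufa7, with starts 10 bp apart, the side of Rps28, a ribosomal protein gene, held 225 to 689 bp and the Ndufa7 side 681 to 848 bp.

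Genes of DNA replication and repair occurred in 33 pairs, none of which had peaks on both sides in all 6 libraries. The median pair had peaks on both sides in 0 libraries, and 6 had them on 1 and the same side in all 6, against 60 of all 750. The partner's side was the longer in all 6 libraries at 9 of the 33, and the side of the listed gene at 1, Orc3/Rars2. Thus 1 side was constantly longer at 10 of 33, against 237 of all 750. At Brca1/Nbr1 the Nbr1 side held 829, 686, 823, 755, 724 and 672 bp and the Brca1 side 0 bp in every library. At Pxmp2/Pole, whose second gene encodes the catalytic subunit of DNA polymerase epsilon, the Pxmp2 side held 649 to 899 bp and the Pole side 0 bp. At Emc3/Fancd2, whose second gene belongs to the Fanconi anaemia pathway, the Emc3 side held 405 to 789 bp and the Fancd2 side 0 bp, with starts 30 bp apart. Polk/Col4a3bp, Palb2/Dctn5 and Xrcc3/Zfyve21 were covered on the partner's side alone in all 6 as well.

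Clustered histone genes made up 14 pairs, of which 13 joined 2 histone genes. No peak lay in the region of 12 in any library, among them Hist1h2bf/Hist1h2ad. The exceptions were neighbours on chromosome 3, Bola1/Hist2h2ab and Hist2h2ac/Hist2h2be, whose regions overlap and so share peaks. At Hist2h2ac/Hist2h2be the Hist2h2ac side held 695 to 1001 bp. These genes have many near-identical copies, and how reads with several matches were treated is not given in the sources used here, so a part of missing reads in these values was not tested.

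Of the other lists, genes of the mitochondrial ribosome gave 18 pairs, with peaks on both sides in all 6 libraries at 3 and no pair without a peak in all 6. Cytosolic ribosome genes gave 9 pairs, with 3 covered on both sides in all 6, and aminoacyl-tRNA synthetase genes 5 pairs, with 0. Proteasome genes gave 8 pairs and 0, chaperone genes 11 pairs and 1, and zinc finger genes 18 pairs and 2. Olfactory and vomeronasal receptor genes, 1464 symbols, gave 1 pair. Genes of liver metabolism and secretion gave only 3 pairs, of which Hadha/Hadhb and Asl/Crcp were covered on both sides in all 6. The third was covered on both sides in no library and had no peak in 5. At Hadha/Hadhb the Hadha side held 592 to 1001 bp and the Hadhb side 547 to 1001 bp. At Asl/Crcp the side of Asl, the argininosuccinate lyase gene of the urea cycle, held 251 to 283 bp and the Crcp side 256 to 1001 bp.

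Of the 99 pairs with peaks on both sides in all 6 libraries, 3 more are given as single examples, picked after their values were seen. At Slc27a5/Trim28 the side of Slc27a5, a bile acid-CoA ligase gene, held 981 to 1001 bp and the side of Trim28, a corepressor gene, 803 to 1001 bp. At Bhmt2/Dmgdh, a pair of genes of methyl group metabolism, the Bhmt2 side held 937 to 1001 bp and the Dmgdh side 371 to 1001 bp. At Tst/Mpst, a pair of sulfurtransferase genes, the Tst side held 804 to 976 bp and the Mpst side 930 to 1001 bp.

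Of 32 divergent pairs listed from general knowledge, 7 were found by the rule; at 13 others the outermost annotated 5′ ends overlap. Besides Brca1/Nbr1, Sdhd/Timm8b and Arcn1/Ift46 these were Gart/Son, Atm/Npat, Mcm4/Prkdc and Mrps12/Sars2. At Gart/Son, a purine synthesis gene and a splicing cofactor gene 554 bp apart, the Son side held 884, 348, 827, 762, 736 and 502 bp and the Gart side 287, 0, 341, 0, 0 and 0 bp. At Atm/Npat a peak of 346 to 531 bp lay on the Atm side in B6 replicate 1, MSM replicate 1 and F1 BM, and none in the other 3 libraries. At Mcm4/Prkdc the only peak was that of B6 replicate 1. At Mrps12/Sars2 both sides were covered in 4 libraries, 1 side in F1 BM and none in B6 replicate 2. At Arcn1/Ift46 the Arcn1 side held 696 to 1001 bp in all libraries, and the Ift46 side 93 and 0 bp in B6, 657 and 306 bp in MSM, 288 bp in F1 BM and 0 bp in F1 MB. The B6 and MSM libraries did not overlap on the Ift46 side, but over the whole region they did (915.5 ± 261 bp against 1320 ± 424 bp, SD, n = 2, exact permutation p = 0.667).

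The fourth question was which pairs differed between the strains. A pair was called separated when the covered bp of its region in both libraries of 1 strain lay at least 200 bp above those of both libraries of the other; no test is given for these pairs, since the rule fixes the order of the libraries. Both B6 libraries lay above both MSM libraries at 21 pairs and both MSM libraries above both B6 libraries at 2. Among windows of 1 kb either side of all 21911 starts the shares were 1.99% and 0.529%, against 2.80% and 0.267% of the pairs. The pair regions are longer than these windows and more often hold a peak, and no more is read from the counts. With the same number of peaks taken from each list, 41 pairs lay higher in B6 and 13 in MSM, with 3.3% and 1.31% of the windows. With the same covered length taken from each, the order turned, with 25 pairs higher in B6 and 38 in MSM and 1.88% and 2.78% of the windows. With the same number of peaks, of the 21 pairs 15 were called again, and of the 2 pairs both. The counts rested on single libraries: without B6 replicate 2, the shortest list, 388 pairs lay higher in B6, and without B6 replicate 1, the longest, 265 lay higher in MSM. Without either MSM library they were 44 or 49 and 13 or 14.

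**Figure D5:**
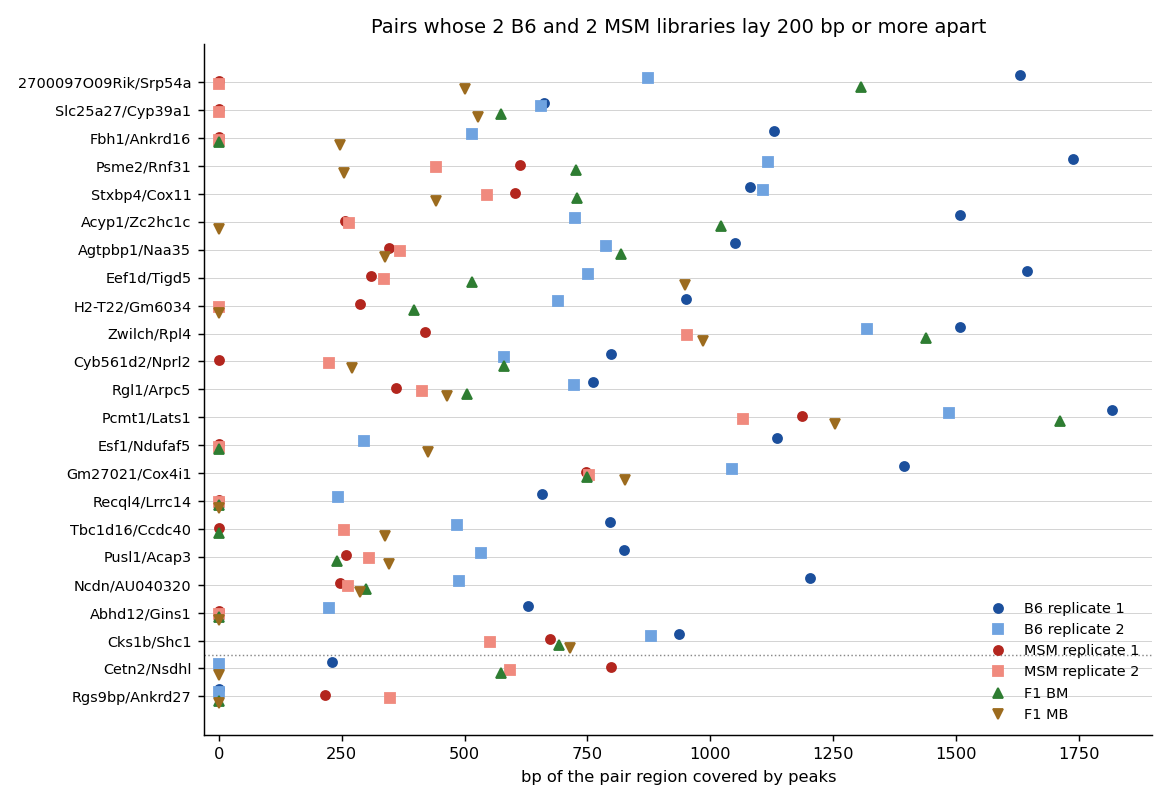
Base pairs of the pair region covered by peaks (x axis) in each of the 6 libraries at the 21 pairs with more cover in B6 (above the dotted line) and the 2 pairs with more cover in MSM (below it). The F1 libraries lay in places among the B6, in places among the MSM libraries and in places between them.

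The 4 pairs with the largest separation towards B6 were 2700097O09Rik/Srp54a, Slc25a27/Cyp39a1, Fbh1/Ankrd16 and Psme2/Rnf31. At Slc25a27/Cyp39a1 a single peak on the Cyp39a1 side covered 661 and 655 bp in B6, 0 and 0 bp in MSM, 575 bp in F1 BM and 527 bp in F1 MB. Both F1 libraries thus held the peak, at a shorter length than in B6, and the Slc25a27 side was empty in all libraries. Cover averaged 658 ± 4.24 bp for B6 against 0 bp for MSM (SD, n = 2), as a description.

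At 2700097O09Rik/Srp54a the region held 1630 and 873 bp in B6, 0 and 0 bp in MSM, 1307 bp in F1 BM and 502 bp in F1 MB. The Srp54b and Srp54c starts on the same chromosome, close copies of Srp54a, were covered over 690 to 1582 bp in B6, 0 bp in both MSM libraries and 700 to 1338 bp in the F1 hybrids. Reads from near-identical copies may be placed at either copy, so the values of these loci are uncertain. At Fbh1/Ankrd16, a DNA helicase gene and its neighbour, the region held 1130 and 515 bp in B6, 0 and 0 bp in MSM, 0 bp in F1 BM and 246 bp in F1 MB. At Psme2/Rnf31, a proteasome activator gene and a ubiquitin ligase gene, it held 1739 and 1117 bp in B6, 612 and 443 bp in MSM, 726 bp in F1 BM and 255 bp in F1 MB. Outside the stretch between the starts, the cover in MSM lay on the Rnf31 side in replicate 1 and on the Psme2 side in replicate 2.

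At Cetn2/Nsdhl on chromosome X the Nsdhl side held 230 and 0 bp in B6, 799 and 593 bp in MSM, 575 bp in F1 BM and 0 bp in F1 MB, while the Cetn2 side held none. At Rgs9bp/Ankrd27 the Ankrd27 side held 217 and 349 bp in MSM and no other library had a peak. The next pairs towards MSM were Vipas39/Ahsa1 and Faap24/Cep89, with separations of 162 and 142 bp that stay under the limit of 200 bp. Of the 21 pairs higher in B6, F1 BM lay at or above the lower B6 library at 5, at or below the higher MSM library at 7 and between them at 9. For F1 MB these numbers were 2, 7 and 12.

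In some pairs the strains differed in 1 side only. At 10 pairs both B6 libraries had peaks on both sides and both MSM libraries on the same single side: the minus-strand side at Agtpbp1/Naa35, Eef1d/Tigd5, Dzip3/Cip2a, 6430550D23Rik/Ergic3, Ikzf5/Acadsb and Dcun1d2/Tmco3, and the plus-strand side at Acyp1/Zc2hc1c, Pusl1/Acap3, Pcid2/Cul4a and Gm27021/Cox4i1. The reverse, both sides in MSM and 1 side in B6, was found at 1 pair, Hs2st1/Selenof. These shares, 1.33% and 0.133% of the pairs, stood beside 0.560% and 0.119% of single starts. Only regions with peaks on both sides in both libraries of a strain could enter such a count. In B6 replicate 2 peaks lay on both sides at 22.4% of the pairs and 6.27% of the single regions. Shares of all regions therefore do not compare how often a side was lost, here or in the alternatives below. Under alternatives chosen after seeing the data the counts were 15 and 2 pairs (2% and 0.267%, beside 0.667% and 0.198% of single starts) with the same number of peaks from each list. With the same covered length they were 4 and 3 pairs (0.533% and 0.400%, beside 0.305% and 0.147%). At Gm27021/Cox4i1, whose second gene encodes a cytochrome c oxidase subunit, the region held 1395 and 1045 bp in B6, 748 and 754 bp in MSM, 749 bp in F1 BM and 826 bp in F1 MB.

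The sequence around the starts was not used to choose the pairs. In the 150 bases on either side of each start, the median GC content was 62.8% for paired starts, 57.1% for single starts and 57.8% for all starts. The median ratio of observed to expected CpG was 0.848 for paired, 0.520 for single and 0.589 for all starts, and 87.7%, 45.0% and 49.3% had a ratio of at least 0.6. Windows of the partners of a pair overlap where their starts are close, so they are not independent.

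The CpG ratio was also read by where the peaks of a pair lay. It was 0.896 at the starts of pairs with peaks on both sides in all 6 libraries (195 starts). At pairs covered on 1 and the same side in all 6 it was 0.831 at the covered start and 0.794 at the other, 93.2% and 86.7% of which reached 0.6. It was 0.863 at starts of pairs whose placing differed between libraries (989 starts) and 0.672 at starts of pairs with no peak in all 6 (180 starts). The windows of partners share bases where their starts are close, so the ratio at the other start does not describe the bare side alone.

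Motif letters were searched on both strands in the same windows, and matches are descriptions, not binding sites. The ETS letters CCGGAAG were found at 25.5% of paired and 11.5% of all starts, the NRF1 letters GCATGCGC at 6.34% and 3.25%, and the GC box GGGCGG at 68.2% and 45.5%. The YY1 letters AAGATGGC were found at 8.16% and 3.51%, the BANP letters TCTCGCGA at 4.79% and 1.34%, and the ZNF143 letters ACTACAA at 5.67% and 3.25%. The CCAAT box was found at 43.0% and 36.7%, the cAMP response element TGACGTCA at 4.39% and 2.34%, and the E-box CACGTG at 11.3% and 7.43%. The TATA box letters TATAAA were rarer at paired starts, 3.51% against 10.7%. Some of these words overlap in sequence with CpG-rich stretches, and GC content was not matched. By where the peaks lay, ETS letters were at 25.1% of the starts of pairs covered on both sides in all 6, 29.2% where the placing differed between libraries, 28.8% and 18.3% at the covered and the other start of pairs with 1 covered side, and 6.67% at pairs with no peak in all 6. The CCAAT box was at 32.8%, 42.2%, 49.2%, 60.0% and 51.1% of the same classes.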

How the data were processed

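H3K9ac ChIP-seq peak lists of 6 liver libraries were analysed; the 6 inputs were not used here. Sample titles gave the groups and replicate numbers. The authors fixed liver, precipitated chromatin with an H3K9ac antibody and sequenced it as paired reads on a HiSeq2500. Their processing notes name Trim Galore, HISAT2, SAMtools and MACS2 and the builds mm10 and GRCm38, while the study's methods name another aligner, Bowtie 2, with a long maximal insert; versions, the calling threshold and the control are not given in the sources used here. Peaks were called per library and not pooled.

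The deposited lists give a fold enrichment (a linear ratio over background), the -log10 of the p-value and of the q-value, and a score, the whole part of 10 times the -log10 q, as the authors' caller wrote them. The score was not used, the fold describes peaks, and the -log10 values filtered or ranked them. The lowest -log10 q was 1.30 to 1.35. Peaks closer than 49 bp to each other were absent, so gaps below this width cannot be seen.

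Mapping to the B6 genome may lose MSM reads where the strains differ in sequence. All peak ends lay inside the chromosomes of GRCm38. Pairs, sides, gaps and cover were computed with scipy 1.17.1 and numpy 2.4.6 in Python 3.11.15, after a test on simulated peaks, and figures with matplotlib 3.10.9. A peak counted from 1 bp of overlap, and a gap from 1 bp. Strains were compared by exact permutation over 4 libraries, and pairs with single starts by exact sign flips over 6. Alternatives were a stricter list (-log10 q of at least 5), equal peak number or covered length, an overlap of 100 bp, starts at most 500 bp apart, pairs with overlapping 5' ends, a side of 500 bp, gaps of at least 150 bp, leaving out each parental library, and the replicate block.

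Named pairs are the pairs found from the list of known pairs, Arcn1/Ift46, the list members by symbol, and 4 pairs each by widest mean gap, strain separation in each direction, constant side difference and lowest fold over the libraries; others are said to be picked after their values were seen. The members and lists were chosen with earlier results of these data known. Rps6k kinase genes were removed from the cytosolic ribosome list. One pair that the lists would name is not reported here.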

Additional observations from a re-analysis of the deposited data

How the results depend on the processing

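The excess of paired over single starts with a peak and the shorter downstream cover kept their direction and their p of 0.03125 under all alternatives with 6 libraries, though the first was 25.7 points with equal covered length and the second -56.9 bp with a side of 500 bp. Without 1 parental library they were 40.2 to 43.1 points and -167 to -162 bp, and the excess of gaps 5.13 to 5.87 points; 5 libraries cannot give a p below 0.0625. The excess of gaps turned to -15.0 points with overlapping 5' ends. With only a start's own downstream side, the added alternative, the first 2 were 25.6 points and -68.9 bp.

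No strain difference could pass a test, since an exact permutation of 2 libraries against 2 cannot go below p = 0.3333, and with 1 library left out none was tested. That of pairs with peaks on both sides ranged from -22.9 points (without B6 replicate 2) to 14.9 points (without B6 replicate 1). That of the gap width ranged from -13.5 bp (without B6 replicate 1) to 51 bp, and was -10.8 bp with equal peak number and -13.2 bp with equal covered length. That of lopsided pairs was 0.891, 2.47 and 1.31 points with the stricter, equal-number and equal-length lists and 0.0128 with a side of 500 bp. In the fit with the replicate block the differences were -4.00, 8.44, 18.8, 1.24 and -1.18, and an exact sign-flip test of 2 pairs of libraries cannot go below p = 0.5. The block changed none of these 5 calls and was not run for the other results, and the numbers share no stated source (correlation of their deviations -0.0407).

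Levels averaged over the libraries moved by more than 1 SD as follows. Pairs with peaks on both sides fell from 36.7 to 15.6% with equal length. Pairs with a gap fell from 88.3 to 79.5% with equal number, 69.8% with equal length, 69.4% with overlapping 5' ends and 71.9% from 150 bp. The gap width was 222.5 bp with equal length and 318 bp from 150 bp, against 275 bp. Gaps over the stretch between starts were 82.0% with overlapping 5' ends, 93.1% with a side of 500 bp and 90.0% from 150 bp, against 87.7%. Lopsided pairs were 31.3, 34.8 and 44.7% with stricter, equal-number and equal-length lists, 20.8% with overlapping 5' ends and 45.5% with a side of 500 bp, against 26.5%.

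Pairs higher in MSM numbered 4 with the stricter list, 13 with equal number, 38 with equal length, 1 at 500 bp, and 2 to 265 without 1 library, against 2. Pairs higher in B6 numbered 41 with equal number, 25 with equal length, fewer than the 38 higher in MSM, and 22 to 388 without 1 library, against 21. For these, the cause was not tested. The lists give no reads, so weak peaks missing from a short list limit all shares.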
